A study of Rattus norvegicus with 31 samples.

Results

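AMPA receptors carry most of the fast excitatory transmission between neurons. Each is built from pore subunits of the genes Gria1, Gria2, Gria3 and Gria4, and an edited Gria2 subunit keeps the channel nearly closed to calcium. The transmembrane AMPA receptor regulatory proteins, or TARPs, sit beside the pore, carry receptors to the surface, hold them at the synapse and slow their closing. Cacng2 encodes stargazin, the TARP first found through the stargazer mouse. Cacng3, Cacng4 and Cacng8 encode TARPs of the same type I class, and Cacng5 and Cacng7 those of type II. In motor neurons of the spinal cord, these receptors receive glutamate from descending fibers, sensory afferents and excitatory interneurons.

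The members were all probe sets whose only gene symbol in the platform annotation was 1 of these 10 genes. That gave 10 probe sets for 9 of the 10 genes, out of 9769 genes named by a single symbol among the probe sets tested. Gria4 had 2 probe sets and the other 8 genes had 1 each. Gria1 had no such probe set among the deposited values, which the authors had filtered, so it was not measured here. Expression was measured on 31 Affymetrix Rat Genome arrays, 1 animal each, in tail motor neurons of adult male Wistar rats that had been back-labelled with Fluoro-Gold and cut from the sacral cord by laser. The groups were uninjured animals (Control, day 0, n = 4) and animals taken 2 days (Spi-2, n = 6), 7 days (Spi-7, n = 5), 21 days (Spi-21, n = 8) and 60 days (Spi-60, n = 8) after complete transection of the cord at the S2 segment. The study added the 15 arrays of Control, Spi-2 and Spi-7 to 16 arrays of Spi-21 and Spi-60 from earlier work, so that, in any comparison across these sets, time after injury and study cannot be told apart. Values are on the log2 scale, where a difference of 1 is a doubling, and ± is the SD over animals for a mean and the SE of the fit for a change.

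The arrays had medians of 5.95 to 6.10, and arrays of the same group correlated at 0.925 to 0.989 over probe sets. The mean over 9 motor neuron markers was 10.28 to 10.87 on every array, carried by neurofilaments, Prph, Calca and Slc5a7, while the transcription factors Isl1 (mean 5.70) and Isl2 (mean 5.62) were dim. Of the motor neuron markers, 1 was called lower at each of days 2, 21 and 60, and 1 higher at each of days 2, 7, 21 and 60. The mean over 9 microglia and macrophage markers was 6.31 to 7.15 in Spi-2 and 5.89 to 6.88 in Spi-7, against 5.52 to 5.78 in Control. Of these 9, 4 were called higher at day 2 and 1 at day 7. The mean over 5 interneuron markers was 5.90 to 6.86 in Spi-2 and 5.81 to 7.05 in Spi-7, against 6.31 to 7.91 in Control, with 2 of the 5 called lower at day 2. The mean over 7 oligodendrocyte markers was 7.83 to 8.35 in Spi-2 and 7.62 to 8.58 in Spi-7, against 8.08 to 8.83 in Control. Of these 7, 1 was called lower at each of these days. Beside these counts, 4.98% of all probe sets were called lower at day 2 and 1.67% at day 7. Those called higher were 3.9% and 0.914%. The difference between the 3′ and 5′ probe sets of Gapdh, a measure of how far the amplified RNA was shortened, averaged 2.82 ± 0.36 in Spi-2 and 3.01 ± 0.37 in Spi-7, against 2.01 ± 0.33 in Control. The library of Spi-7 replicate 5 stood apart from its group, with an interquartile range of 1.75 where the other 4 had 1.98 to 2.01, and the main results that rest on it are given with and without it. The Spi-21 libraries also fell into 2 sets, the Gapdh difference being 2.76 to 3.54 in replicates 1 to 4 and 1.13 to 1.66 in replicates 5 to 8, and replicates 1 to 3 had an interquartile range of 1.74 to 1.79 where the other 5 had 1.83 to 1.89.

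Cacng2 was called lower than Control at days 2 and 7 after transection and was not called at days 21 or 60. None of the other 9 probe sets passed the test over the 5 groups, but probe set 1396696_at of Gria4 was called lower at day 21. Each of these calls at single days was lost under some other settings, as given below. In the moderated F-test of limma, Cacng2 (probe set 1368759_at) ranked 66 of 12913 probe sets with an adjusted p of 0.000101. This was 1 member probe set called of 10, where 16.2% of all probe sets were called. In the same F-test 4 members had an unadjusted p under 0.05. Of these, Gria2 (limma unadjusted p = 0.0413) ranked only 4999 of 12913, so such values were common over all probe sets. The share of members called was thus not above the background. The comparisons of each day with Control share the same 4 Control animals.

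**Figure D1:**
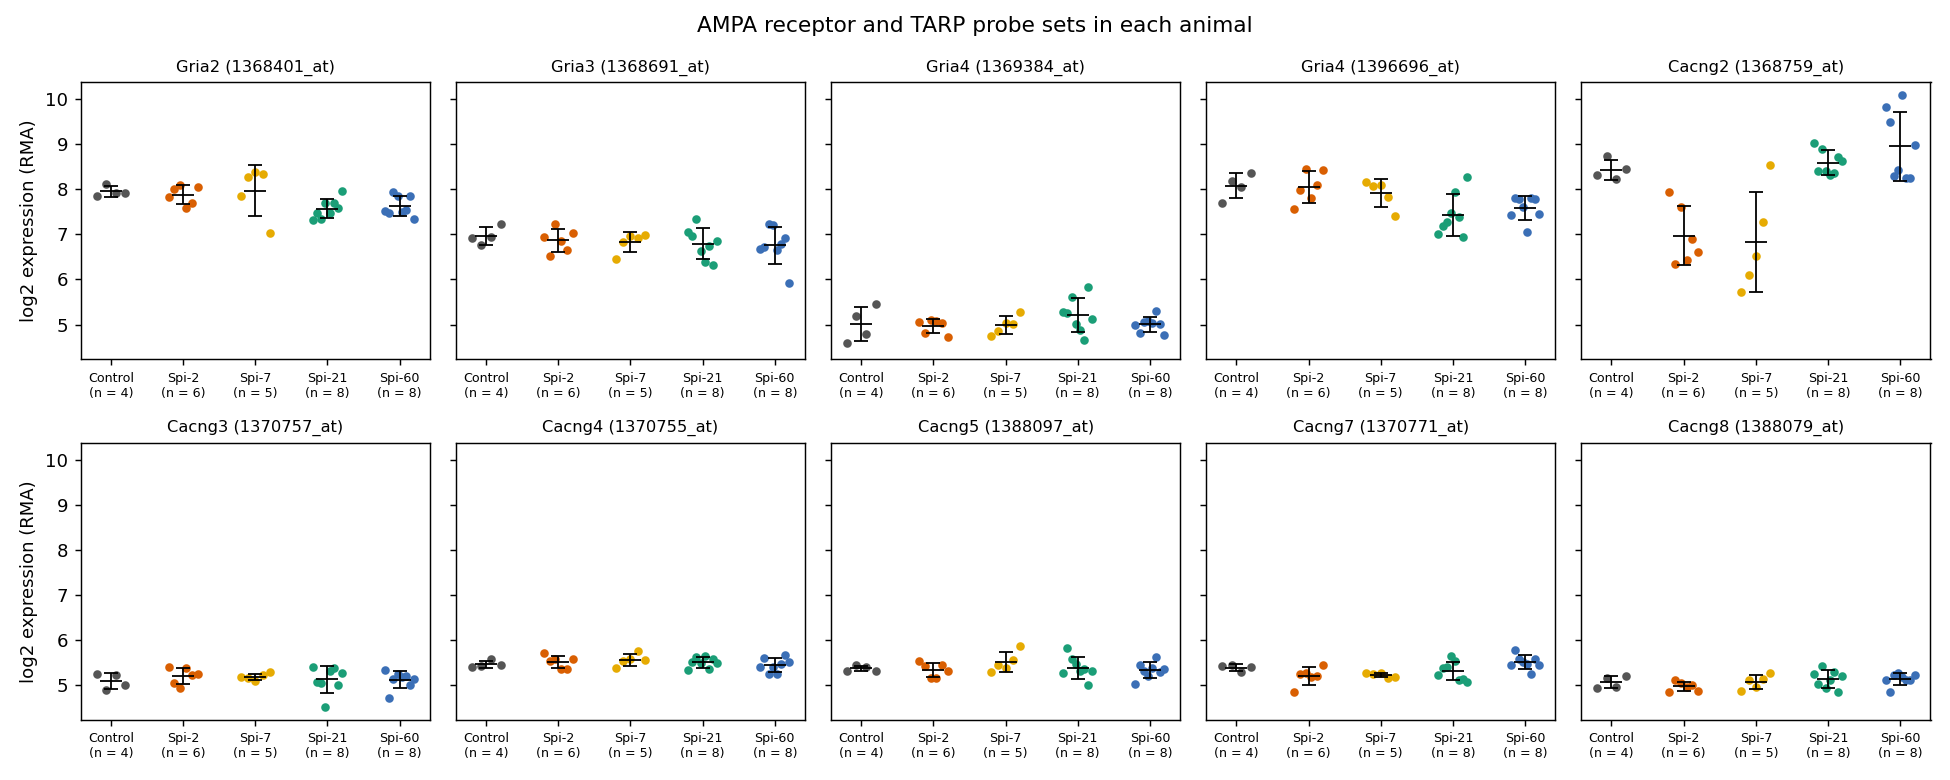
Log2 expression of the 10 member probe sets (1 panel each) in every animal, by group in order of time, with the group mean and SD as black marks. Cacng2 is the only panel in which 2 groups, Spi-2 (mean 6.97) and Spi-7 (mean 6.84), lie more than 1 log2 unit from Control (mean 8.44).

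In Control animals, Cacng2 had log2 values of 8.24, 8.32, 8.46 and 8.74. In Spi-2 animals, the values were 6.35 at the lowest, 6.76 at the median and 7.94 at the highest. In Spi-7 animals, they were 5.73, 6.11, 6.52, 7.27 and 8.55. All 6 Spi-2 animals were below every Control animal, and so were 4 of the 5 Spi-7 animals. The Spi-7 animal at 8.55 was replicate 5, the library that stood apart. The Spi-21 animals ranged between 8.31 and 9.03 with a median of 8.52, and none of the 8 was below the lowest Control animal. The Spi-60 animals ranged between 8.25 and 10.10 with a median of 8.71, and their SD was 0.76, against 0.22 in Control: 4 of the 8 were above the highest Control value and none was below the lowest.

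**Figure D2:**
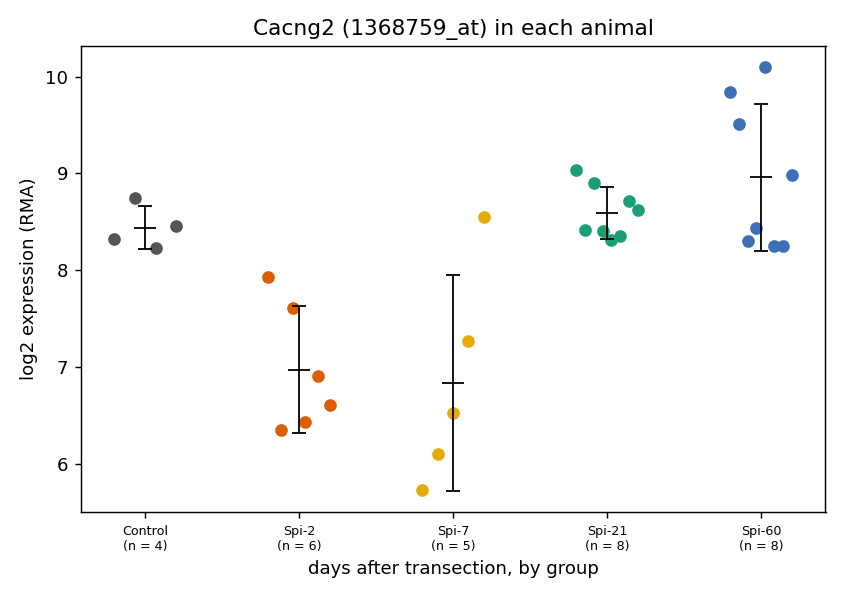
Log2 expression of Cacng2 in each animal (points) with the mean and SD of each group (black), groups in order of time. The 6 Spi-2 animals lie at 6.35 to 7.94 and 4 of the 5 Spi-7 animals at 5.73 to 7.27, below the 4 Control animals at 8.24 to 8.74.

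Cacng2 averaged 6.97 ± 0.66 in Spi-2 (n = 6) and 8.44 ± 0.22 in Control (n = 4), a change of −1.47 ± 0.40 or 2.76-fold lower (limma adjusted p = 0.0198). It averaged 6.84 ± 1.12 in Spi-7 (n = 5), a change of −1.61 ± 0.42 or 3.04-fold lower than Control (limma adjusted p = 0.0315). Without Spi-7 replicate 5 the change at day 7 was −2.03. Cacng2 was the only member called at either day. At day 2 the call stood beside 4.98% of all probe sets called lower and 3.9% called higher, and at day 7 beside 1.67% lower and 0.914% higher. No member was called higher at either day. Cacng2 was again the 1 member at each day with an unadjusted p under 0.05. Of all 12913 probe sets, 2952 had one at day 2 and 2014 at day 7.

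The day 2 call was lost with the Gapdh difference as a covariate (−1.43, adjusted p = 0.0514) and without Control replicate 2 (−1.37, adjusted p = 0.0648). The day 7 call was lost with that covariate (−1.56, adjusted p = 0.0957), with a further quantile normalization (−1.47, adjusted p = 0.0636), in a fit to Spi-7 and Control alone (adjusted p = 0.0744), in a fit to the 15 arrays of the present study (adjusted p = 0.0641), and without any of 7 single arrays (Control replicates 1, 2, 3 and 4 and Spi-7 replicates 1, 2 and 3), the change staying between −2.03 and −1.33 when single arrays were left out. Over all alternatives the adjusted p at day 2 lay between 0.00101 and 0.0648, and that at day 7 between 3.78e-05 and 0.105. The part of the other cell types in this change was not tested. In pooled cells of this kind, fewer cells of a type and less RNA per cell cannot be told apart.

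Within the present study alone, the F-test over Control, Spi-2 and Spi-7 called 0 members in limma, where 3.01% of all probe sets were called, and 1 member, Cacng2, had an unadjusted p under 0.05. Its adjusted p there was 0.0684 (rank 926 of 12913), above the FDR of 0.02 used for F-tests. Without Spi-7 replicate 5 it was 0.00575, with arrays weighted by their quality it was 0.00128, and with the Gapdh covariate it was 0.904. Spi-7 minus Spi-2 was −0.14 ± 0.38 for Cacng2 (95% interval −0.91 to 0.63, limma adjusted p = 0.999), so the level was not shown to differ between these days. Without Spi-7 replicate 5 it was −0.57 ± 0.34 (95% interval −1.27 to 0.13, limma adjusted p above 0.99). No member was called in that comparison, and neither was any other probe set (0% of 12913). At an unadjusted p under 0.05 there were 0 members and 460 probe sets in all.

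On the late arrays, Cacng2 averaged 8.60 ± 0.27 in Spi-21 (n = 8), which was 0.15 ± 0.38 above Control (limma adjusted p = 0.818). It averaged 8.96 ± 0.76 in Spi-60 (n = 8), which was 0.52 ± 0.38 above Control, with a 95% interval of −0.26 to 1.30 (limma adjusted p = 0.379). Spi-21 minus Spi-7 was 1.76 ± 0.36 (limma adjusted p = 0.00823), 1 member called where 4.29% of all probe sets were called in either direction, and this comparison crosses the 2 studies. Without Spi-7 replicate 5 it was 2.19 ± 0.32 (limma adjusted p = 0.000155), and Gria2 (−0.64 ± 0.13, limma adjusted p = 0.00231) and Gria4 probe set 1396696_at (−0.60 ± 0.20, limma adjusted p = 0.0434) were then called lower in Spi-21 than in Spi-7, with 1593 of 12913 probe sets called in all. Spi-60 minus Spi-21, which stays within the earlier study, was 0.36 ± 0.25 (95% interval −0.16 to 0.89, limma adjusted p = 0.643). In that comparison 0 members and 0.00774% of all probe sets were called. At an unadjusted p under 0.05 there were 0 members and 1340 of 12913 probe sets. From high to low, the mean level of Cacng2 thus ran Spi-60, Spi-21, Control, Spi-2 and Spi-7. Of the neighbours in that order only Spi-2 and Control were called different. That call was lost with the Gapdh covariate and without Control replicate 2.

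**Figure D3:**
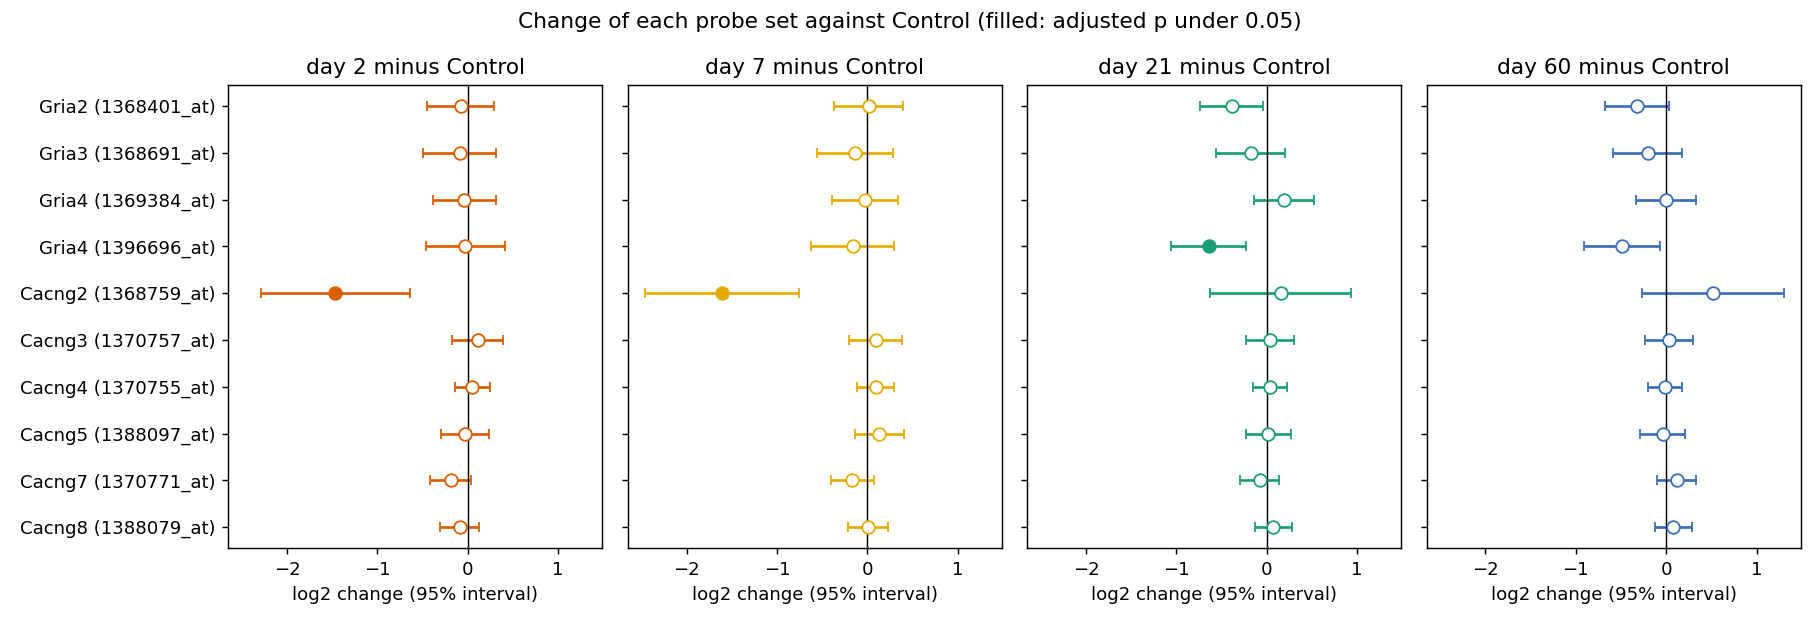
Log2 change of each member probe set against Control at day 2, 7, 21 and 60 (1 panel a day), with the 95% interval of the fit, filled where the adjusted p was under 0.05. The filled points are Cacng2 at day 2 (−1.47) and day 7 (−1.61) and probe set 1396696_at of Gria4 at day 21 (−0.64).

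Among the pore subunits, Gria2, Gria3 and the brighter of the 2 probe sets of Gria4 had their lowest means at the late days, and the dimmer one of Gria4 had its highest mean in Spi-21. Gria4 encodes a subunit of fast receptors, and its probe set 1396696_at was designed on an expressed sequence tag. This probe set had values of 7.71, 8.06, 8.18 and 8.37 in Control animals. It ranged between 7.56 and 8.45 in Spi-2 (median 8.04) and between 7.42 and 8.17 in Spi-7 (median 8.08). It ranged between 6.94 and 8.29 in Spi-21 (median 7.33) and between 7.04 and 7.82 in Spi-60 (median 7.70). The groups overlapped, but 6 of 8 Spi-21 animals and 4 of 8 Spi-60 animals were below the lowest Control animal, against 1 of 6 in Spi-2 and 1 of 5 in Spi-7.

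At day 21 this probe set averaged 7.44 ± 0.46 in Spi-21 (n = 8) and 8.08 ± 0.28 in Control (n = 4), a change of −0.64 ± 0.21 or 1.56-fold lower (limma adjusted p = 0.0301). It was 1 member called lower and 0 higher at day 21, where 10.7% of all probe sets were called lower and 5.94% higher, so this count lies at the background. At day 60 the change was −0.49 ± 0.21 (limma adjusted p = 0.0999). With the Gapdh covariate it was −0.10 (adjusted p = 0.881), and in a fit to Spi-60 and Control alone it was called (adjusted p = 0.0315). At day 60 no member was called in either direction, where 9.89% of all probe sets were called lower and 7.2% higher. This probe set was also the 1 member with an unadjusted p under 0.05 at day 60, where 3994 of 12913 probe sets had one. Its changes at days 2 and 7 were −0.03 ± 0.22 and −0.16 ± 0.22. The F-test over the 5 groups gave it an adjusted p of 0.0243, above the threshold of 0.02. It passed with array weights (0.00359), with the Gapdh covariate (0.0114), and without any of 4 single arrays, Spi-2 replicate 1 (0.0132), Spi-7 replicate 5 (0.0118), Spi-21 replicate 5 (0.014) and Spi-21 replicate 8 (0.00378). Over all alternatives this adjusted p lay between 0.00359 and 0.108, the highest being that without Spi-21 replicates 1 to 3.

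The day 21 call of probe set 1396696_at was lost with a further quantile normalization (−0.48, adjusted p = 0.0769) and in a fit to Spi-21 and Control alone (adjusted p = 0.0768). It was also lost without Spi-21 replicates 1 to 3 (−0.47, adjusted p = 0.203), and without any of 6 single arrays (Control replicates 2, 3 and 4 and Spi-21 replicates 1, 2 and 3). Over all alternatives its adjusted p at day 21 ran from 0.00569 to 0.203. On the same arrays the mean over the 5 interneuron markers lay between 5.50 and 6.40 in the Spi-21 animals and between 5.75 and 6.55 in the Spi-60 animals, against 6.31 to 7.91 in Control, and 3 of the 5 were called lower at each of these days. Of 7 oligodendrocyte markers, 4 were called lower at day 21 and 2 at day 60, and of the 9 microglia and macrophage markers, 2 and 3 were called higher. Of all probe sets, 10.7% and 9.89% were called lower at days 21 and 60, and 5.94% and 7.2% higher. The Gapdh difference was 2.29 ± 0.94 in Spi-21 and 3.49 ± 0.35 in Spi-60, against 2.01 ± 0.33 in Control. The part of these in the late values was not tested. The second probe set of Gria4, 1369384_at, was dim, its mean lying above 12.1% of all probe sets, and its change at day 21 was 0.20 ± 0.16 (limma adjusted p = 0.431). The annotation links 1369384_at to a reference mRNA sequence. Pearson's r between the 2 probe sets over the 31 arrays was −0.34, so the call of 1396696_at is not a result for the gene as a whole. Both probe sets were annotated to Gria4 by the same symbol, and it was not tested which transcripts each of them reads. The list of neural transmission genes that the study compiled from these same arrays holds 1396696_at and the Cacng2 probe set, so the calls here are not independent of that selection.

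Gria2 encodes the subunit that sets calcium permeability. Its probe set 1368401_at had values of 7.85, 7.92, 7.93 and 8.13 in Control animals, and ranged between 7.59 and 8.11 in Spi-2 (median 7.91). The Spi-7 animals had 7.04, 7.85, 8.27, 8.33 and 8.38, of which the lowest was replicate 5. It ranged between 7.31 and 7.96 in Spi-21 (median 7.54) and between 7.35 and 7.93 in Spi-60 (median 7.54). Of the Spi-21 animals, 7 of 8 were below the lowest Control animal, and of the Spi-60 animals, 5 of 8.

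Gria2 averaged 7.57 ± 0.21 in Spi-21 and 7.96 ± 0.12 in Control, a change of −0.39 ± 0.17 that did not pass the test (95% interval −0.74 to −0.04, limma adjusted p = 0.116). At day 60 it was −0.32 ± 0.17 (limma adjusted p = 0.199), at day 2 −0.08 ± 0.18 and at day 7 0.02 ± 0.19 (0.25 ± 0.15 without Spi-7 replicate 5). Its adjusted p in the F-test over the 5 groups was 0.107. Without Spi-7 replicate 5 it passed that test (adjusted p = 0.00194) and the comparison at day 21 (adjusted p = 0.0344), and with array weights it passed the F-test (adjusted p = 0.00326). Over all alternatives the adjusted p of its F-test ran from 0.00194 to 0.326.

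Gria3 encodes a subunit that usually joins with Gria2. Its probe set 1368691_at ranged between 6.77 and 7.23 in Control and between 5.91 and 7.35 over the 27 injured animals. Its changes were between −0.20 ± 0.19 at day 60 and −0.09 ± 0.20 at day 2, and its adjusted p in the F-test was 0.878. The 95% interval at day 60 ran from −0.58 to 0.18, so that a fall of Gria3 of up to 0.58 on the log2 scale lies within it.

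As a description of the balance between stargazin and the pore subunits within each animal, the Cacng2 value minus the mean of Gria2, Gria3 and Gria4 (1396696_at) was set to a mean of 0 in Control (SD 0.21). It then averaged −1.40 ± 0.65 in Spi-2, −1.51 ± 1.30 in Spi-7, 0.56 ± 0.37 in Spi-21 and 0.86 ± 0.96 in Spi-60. It was below 0 in all 6 Spi-2 animals, the highest being −0.28, and above 0 in all 8 Spi-21 animals, the lowest being 0.15. The Control animals themselves ran from −0.18 to 0.28, so the Spi-21 range overlapped theirs. So did that of Spi-60, from −0.13 to 2.26, and both late groups come from the earlier study. Among the Spi-7 animals, replicate 5 had 0.63, and without that animal it averaged −2.05 ± 0.60 (n = 4), with a range of −2.53 to −1.20. This difference falls with Cacng2 early, and late it also holds the lower Gria2 and Gria4 values.

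The other 5 TARPs were dim on the array, the mean of each lying above no more than 32.1% of all probe sets, and none of them was called in any comparison. Cacng7 (1370771_at), a type II TARP, came nearest, with an adjusted p of 0.0606 in the F-test. Its 5 Spi-7 animals lay at 5.16 to 5.26 and its 4 Control animals at 5.29 to 5.44, so that these groups did not overlap, but the change was only −0.17 ± 0.12 (limma adjusted p = 0.526). At day 2 it was −0.19 ± 0.11 with 5 of 6 Spi-2 animals below the Control range, and at day 60 it was 0.12 ± 0.11 with 7 of 8 Spi-60 animals above it. Over the 10 members and 4 days, groups did not overlap with Control only for Cacng2 at day 2 and for Cacng7 at day 7. The share of all probe sets that separate from Control in this way was not computed, so these cases are not read as unusual.

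Among the type I TARPs, Cacng3 (1370757_at) had changes between 0.03 ± 0.13 at day 60 and 0.11 ± 0.14 at day 2. Cacng4 (1370755_at) had changes between −0.02 ± 0.09 at day 60 and 0.10 ± 0.10 at day 7. Cacng8 (1388079_at), the TARP best known from the hippocampus, had changes between −0.09 ± 0.11 at day 2 and 0.08 ± 0.10 at day 60. The type II TARP Cacng5 (1388097_at) had changes between −0.04 ± 0.12 at day 60 and 0.14 ± 0.13 at day 7. At this signal the array may not show a change of these genes, and their intervals at each day stayed within 0.41 of 0. Over all 10 member probe sets the median change stayed between −0.06 (day 2) and 0.03 (day 21), and the median over all probe sets was at most 0.01 at day 21.

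The probe sets whose values were most like those of Cacng2 over the 31 arrays were those of Trmt1, a tRNA methyltransferase (Pearson's r 0.927), Adgrb2, an adhesion G protein-coupled receptor (r 0.916), and Uqcrc1, a subunit of respiratory complex III (r 0.914). The arrays share 5 groups and 2 studies, so these values describe likeness only. Adgrb2 was at −0.81 at day 2 and 0.58 at day 60 against Control, Uqcrc1 at −0.47 and 0.48, and Trmt1 at −0.28 and 0.21.

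Of 27 other auxiliary and associated proteins of AMPA receptors, 13 were measured by 15 probe sets, of which 1 (6.67%) was called in the F-test, beside 16.2% of all probe sets. Olfm3, a secreted olfactomedin, was that one, at −1.59 ± 0.27 at day 21 (limma adjusted p = 0.000327) and −1.40 ± 0.27 at day 60 (limma adjusted p = 0.00066). Nptxr, the neuronal pentraxin receptor that gathers AMPA receptors at synapses, was the 1 called at day 2, where it was higher by 1.20 ± 0.28 (limma adjusted p = 0.00652). At day 60, Cpt1c, a protein of the endoplasmic reticulum that binds AMPA receptors, was higher by 0.64 (limma adjusted p = 0.0196) and 1 of the 3 probe sets of Prrt1, 1378228_at, by 0.30 (limma adjusted p = 0.0211), while Abhd6, a lipase that also limits the surface delivery of these receptors, was at −0.61 (limma adjusted p = 0.0233). The medians of this list were −0.09, −0.07, −0.08 and 0.01 at days 2, 7, 21 and 60, and no probe set of it was called at day 7. At day 21, that Prrt1 probe set and Prrt2 were called higher (0.28 and 0.27) beside the lower Olfm3. The other 2 probe sets of Prrt1 were not called, with changes of −0.08 and 0.06 at days 21 and 60 in the brightest, 1377091_at, and −0.05 and 0.01 in 1395356_at. Lower calls thus numbered 0, 0, 1 and 2 of 15 at the 4 days and higher calls 1, 0, 2 and 2, to be read against 4.98%, 1.67%, 10.7% and 9.89% of all probe sets called lower and 3.9%, 0.914%, 5.94% and 7.2% called higher.

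Of 35 scaffold and traffic proteins, 25 were measured by 41 probe sets, of which 6 (14.6%) were called in the F-test, beside 16.2% of all probe sets. Lower calls numbered 1, 1, 4 and 2 at days 2, 7, 21 and 60, and higher calls 2, 0, 0 and 2, of 41 probe sets, so that the 4 at day 21 lie near the 10.7% of all probe sets called lower then. Sacm1l, a phosphoinositide phosphatase of the endoplasmic reticulum and Golgi, fell at all 4 days, with changes of −0.65, −0.60, −0.82 and −0.68 at days 2, 7, 21 and 60 (limma adjusted p of 0.00084, 0.00662, 8.01e-05 and 0.000241). For Shank2, a scaffold of the postsynaptic density, the probe set 1369777_a_at was at −0.52 at day 21 and −0.57 at day 60 (limma adjusted p = 0.0084 and 0.00371), but the brighter 1369776_a_at was at 0.32 and 0.21 and was not called. Rab8a, a small GTPase of traffic to the surface, rose by 0.77 at day 2 (limma adjusted p = 0.00193). Of 3 probe sets for Dlg4, the scaffold to which stargazin binds at the synapse, 1387210_at was higher by 0.39 at day 60 (limma adjusted p = 0.00426) and at 0.03 and 0.05 at days 2 and 7. The brightest, 1395468_at, was at −0.34, −0.32, −0.38 and −0.21 at days 2, 7, 21 and 60, and 1371183_a_at at 0.12 at day 60, with neither called. Dlg2, a close relative of Dlg4, was at −0.64 at day 21 (limma adjusted p = 0.0173). Nedd4, a ubiquitin ligase, was called in the F-test (limma adjusted p = 0.00386) and at day 2 (0.62, limma adjusted p = 0.0326) in the probe set 1383899_at, and the other 4 probe sets of Nedd4, with changes of −0.22 to 0.40 at day 2, were not. Single probe sets of Epb41l1 at day 60 (0.49, limma adjusted p = 0.0269) and of Snx27 at day 21 (−0.37, limma adjusted p = 0.0382) were also called, and the other probe set of Epb41l1 (0.47 at day 60) and the other 3 of Snx27 (−0.27 to 0.12 at day 21) were not.

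**Figure D4:**
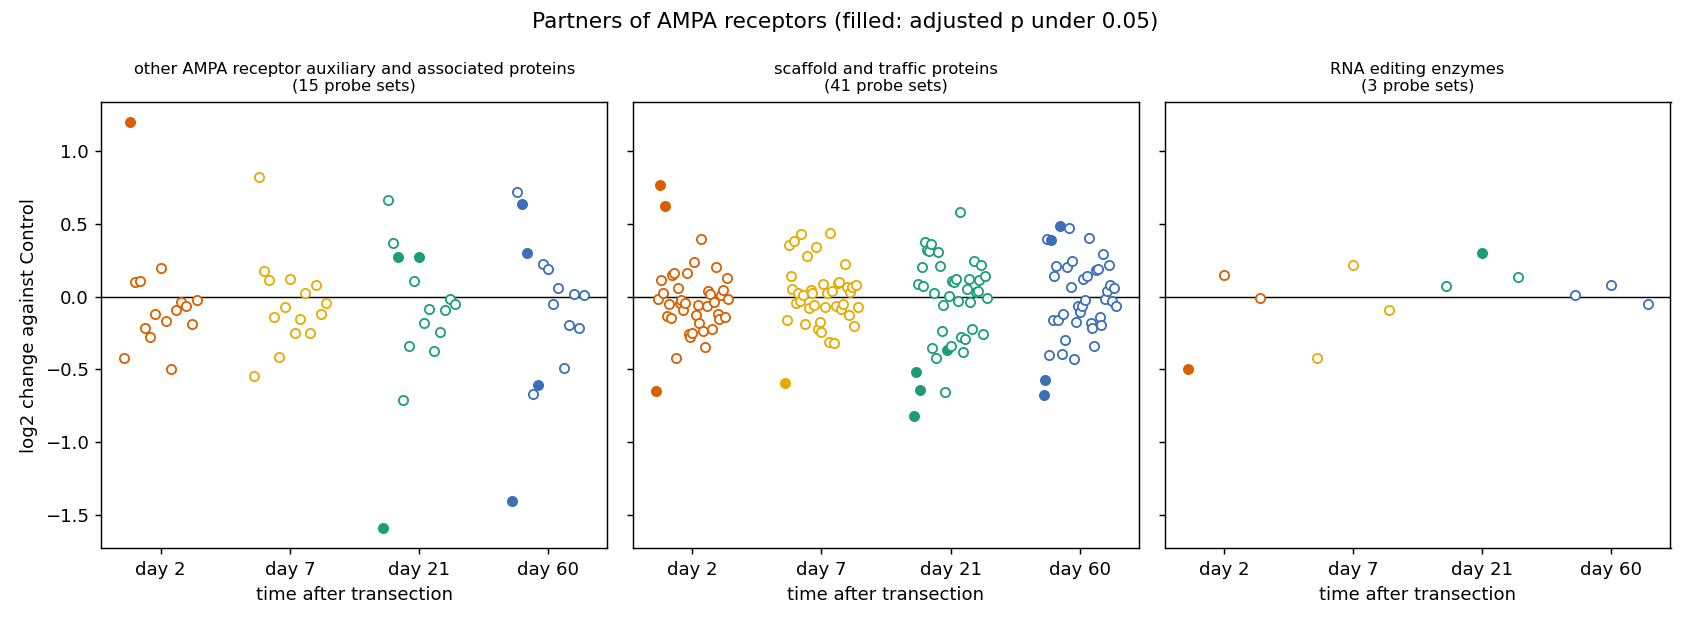
Log2 change against Control at day 2, 7, 21 and 60 of the probe sets of 3 lists of AMPA receptor partners (1 panel a list, 1 point a probe set, filled where the adjusted p was under 0.05). The lowest filled points are Olfm3 (−1.59 at day 21) and the highest is Nptxr (1.20 at day 2).

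Of 4 RNA editing enzymes, 3 were measured. Adarb1, the enzyme that edits the calcium site of Gria2 transcripts, was called in the F-test (limma adjusted p = 0.00395). Its change was −0.50 ± 0.16 at day 2 (limma adjusted p = 0.0451) and was at −0.42 at day 7 (limma adjusted p = 0.192), 0.08 at day 21 and 0.01 at day 60. Editing itself was not measured on these arrays. Adarb2, a related protein without known editing activity, was higher by 0.30 at day 21 (limma adjusted p = 0.0221). Cacng1 and Cacng6, gamma subunits of calcium channels that do not act as TARPs, were measured as well, and neither was called by limma in the F-test (adjusted p = 0.0327 and 0.835) or at any day. Of these 2, Cacng1 had an unadjusted p under 0.05 in the F-test and Cacng6 did not.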

How the data were processed

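Tail motor neurons of single rats were hybridised to Affymetrix Rat Genome arrays after 2 rounds of linear RNA amplification. The deposited values are log2 expression summaries: per the study's methods, the authors kept the 12919 probe sets that Ensembl annotates, corrected background, normalized the arrays and summarised each probe set by RMA (named in the submitters' processing notes, version not given in the sources used here). The methods also name a further background compensation of these summaries, and the smallest deposited value was 0. Normalization of the arrays sets each change relative to the rest of the array. After 6 Affymetrix control sets were left out, 12913 probe sets were fitted with limma 3.58.1 in R 4.3.3, with a mean per group and no covariate. F-tests were called at a Benjamini-Hochberg FDR of 0.02 and two-sided contrasts at an adjusted p under 0.05. The fit was tested on simulated data. The 10 members and the lists of partners and markers were chosen with earlier results of these data known. Every member was described, and within a list the probe sets with the smallest F-test p or a called change were named. Probe sets were named by a platform annotation (11880 with 1 symbol, 320 with several, 713 with none). Alternatives were a replicate block, a further quantile normalization, a robust prior with variance trend, array weights, a filter on dim probe sets, fits to the groups compared alone, the Gapdh covariate, leaving out Spi-21 replicates 1 to 3 together, and leaving out each array. A fit to the 15 arrays of the present study, and the comparisons of days 7 and 2 and of days 21 and 7 without Spi-7 replicate 5, were added after seeing the data. The number of arrays limits the precision.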

Additional observations from a re-analysis of the deposited data

Results flagged for a closer look

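The difference between the changes at days 21 and 7 was called for Cacng2, at 1.76 (limma adjusted p = 0.00823), across the 2 studies. Of 50 groups of animals (10 probe sets in 5 groups), 4 held 1 animal far from the others, and chance alone gives about 5% of groups. These were Spi-7 replicate 1 for Gria3 (6.45), Spi-60 replicate 8 for Gria3 (5.91), Spi-21 replicate 4 for Cacng3 (4.51) and Spi-60 replicate 2 for Cacng8 (4.86), each the lowest of its group. Gria3, Cacng3 and Cacng8 were called in no comparison.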

How the results depend on the processing

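The F-test over the 5 groups, which spans the 2 studies, called Cacng2 under all 7 other settings and without each of the 31 arrays. The number of member probe sets called there was 3 with array weights and 2 with the Gapdh covariate, and 1 to 3 with 1 array left out. In the F-test among days 0, 2 and 7, which stays within the present study, it was 0 in the main fit. There it was 1 with array weights, 0 in the 5 other settings, and 0 in 14 of the 15 fits with 1 array left out. At day 2 it was 0 with the Gapdh covariate and 0 to 1 with 1 array left out. At day 7 it was 0 with a further quantile normalization, with only the 2 groups compared, with the Gapdh covariate and with the 15 arrays of the present study (chosen after seeing the data), and 0 to 1 with 1 array left out. At day 21 it was 0 with a further quantile normalization, with only the 2 groups compared and without Spi-21 replicates 1 to 3, and 0 to 2 with 1 array left out. At day 60 it was 1 with only the 2 groups compared. Changes near 0 turned sign: Gria4 (1396696_at) at day 2 was 0.043 with quantile normalization, 0.11 with array weights, 0.18 with the Gapdh covariate and −0.15 to 0.073 with 1 array left out, Gria4 at day 7 was 0.10 with the Gapdh covariate, and Gria2 at day 7 was −0.085 to 0.25 with 1 array left out. The cause was not tested. The filter on dim probe sets left 6 of the 10 members.

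Animals with the same replicate number did not deviate together on average (mean correlation −0.03 for the same number and 0.01 for other numbers, 11 of 51 same-number pairs above 0.1). The main fit therefore did not use the number as a pairing, though a low mean cannot exclude that some pairs shared more. With a replicate block, 1 member was called in the F-test, 1 each at days 2, 7 and 21 and 0 at day 60, and Cacng2 changed by −1.51 at day 2 and −1.74 at day 7 (limma adjusted p = 0.0272 and 0.0307).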
